A study of Mus musculus with 12 samples.

Results

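The 10 genes described here are secreted Wnt ligands, secreted Wnt antagonists, the signal carrier β-catenin and genes that Wnt signalling switches on: Wnt5a, Wnt7a, Wnt7b, Sfrp1, Sfrp2, Dkk3, Ctnnb1, Axin2, Lef1 and Nkd1. They were picked by symbol, with earlier results of these data known, and all 10 were found among the 37620 genes counted. RNA was sequenced from neural stem cells of mouse embryos (C57BL/6J background) at E14.5, kept dividing in culture with FGF-2 and EGF at 20 ng/ml each. Each of 4 groups had 3 libraries: E12KO (genotype E12-/-), E12wt (E12+/+ litter mates of the E12 knockouts), E47KO (E47-/-) and E47wt (E47+/+ litter mates of the E47 knockouts). E12 and E47 are alternative splice forms of the gene Tcf3, and each encodes a basic helix-loop-helix E protein that binds E-box DNA. Despite its symbol, Tcf3 is not the TCF/LEF factor of the Wnt pathway once known by the same name, which is Tcf7l1. The labels give no detail of the alleles and no word on whether replicates were separate embryos, litters or cultures. Each p-value below then weighs a group difference only against the spread of these libraries, and that spread may be technical. In cell populations measured as a whole, fewer cells of a type and less RNA per cell cannot be told apart.

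Wnt proteins are lipid-bearing ligands that bind Frizzled receptors. In the canonical branch, with LRP5 or LRP6 as co-receptor, they stop the destruction of β-catenin, which then works with TCF/LEF factors on target genes such as Axin2, Lef1 and Nkd1. Several of these targets feed back on the pathway. Secreted antagonists of the Sfrp and Dickkopf families act outside the cell, on the ligands or on the receptors. In the embryonic forebrain, Wnt signals are known to bear on the choice of neural progenitors between division and differentiation.

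Counts of reads on the strand opposite to the sequenced read were compared as CPM, the reads of a gene relative to all gene reads of its library, scaled over the 12 libraries. Libraries held 34515297 to 56835783 gene reads, so that 3 reads corresponded to 0.0528 to 0.0869 CPM. All 8 neural stem cell markers examined (Nes, Sox2, Pax6, Fabp7, Vim, Slc1a3, Prom1 and Hes5) averaged at least 1 CPM, and their summed level lay between 7343 and 8569 CPM in every library. Of 10 markers of the cortical hem and choroid plexus, forebrain sources of Wnt ligands, Ttr alone averaged at least 1 CPM, and Wnt3a was at or below 0.0239 CPM in every library. Tcf3 as a whole ranged over 72.9 to 101 CPM among E12KO libraries, against 75.9 to 82.4 CPM among E12wt libraries. The E47KO libraries had 106 to 117 CPM, against 75.9 to 97.2 CPM in the E47wt libraries. A count per gene covers both splice forms and so does not check either knockout. Xist, made in female cells, was at 885 to 1509 CPM in the 6 libraries of the E12 line and in E47wt replicates 1 and 3. E47wt replicate 2 and the 3 E47KO libraries instead carried Y-linked transcripts at 200 to 245 CPM, so sex and E47 genotype are partly confounded.

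For 8 of the 10 Wnt genes, knockout and wild-type libraries overlapped in both lines. Sfrp1 lay lower in every knockout library than in every wild-type library of its line, and Wnt5a lay higher in the same way. No member passed the test in any comparison with edgeR's quasi-likelihood test and Benjamini-Hochberg adjustment over all genes (adjusted p under 0.05), in which few genes of any kind passed. In E12KO against E12wt, 0 of 10 members were called, against 0.0407% of 14755 genes tested. Unadjusted, 4 members (Wnt5a, Sfrp1, Dkk3 and Lef1) had a p under 0.05, against 8.96% of all genes. With DESeq2 on the same counts, 1 member (Sfrp1) was called, against 0.515% of genes. In E47KO against E47wt, 0 of 10 members were called by edgeR, against 0.0134% of 14965 genes, and 0 by DESeq2, against 0.0802%. The unadjusted p was under 0.05 for 1 member (Wnt5a), against 2.19% of all genes. With sex as a covariate in the edgeR fit it was under 0.05 for 0 members and for 98 of 14965 genes. The knockout and wild-type libraries did not overlap for 2 members in each line, the same pair Wnt5a and Sfrp1, against 13.6% of genes in the E12 line and 7.89% in the E47 line. The median log2 fold change of the members was 0.01 in the E12 line, with 6 above 0 and 4 below, and 0.08 in the E47 line, with 7 above and 3 below. Over all genes tested the median was 0.00 and -0.01 in these 2 lines.

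Per kilobase of merged exon length, Ctnnb1 stood far above the other members, with a mean over the 12 libraries of 291 CPM per kilobase. Wnt7b followed at 13.7 CPM per kilobase, Wnt7a at 11.99, Nkd1 at 11.6, Wnt5a at 9.59 and Sfrp1 at 7.49. Sfrp2 had 4.94 CPM per kilobase and Axin2 had 3.47, and the lowest were Dkk3 at 0.223 and Lef1 at 0.129. The 12 libraries of neighbours in this order overlapped in 6 of 9 pairs. The gaps without overlap lay between Ctnnb1 and Wnt7b, between Sfrp1 and Sfrp2, and between Axin2 and Dkk3. Per-kilobase values rest on exon lengths of a later genome build than that of the counts.

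**Figure D1:**
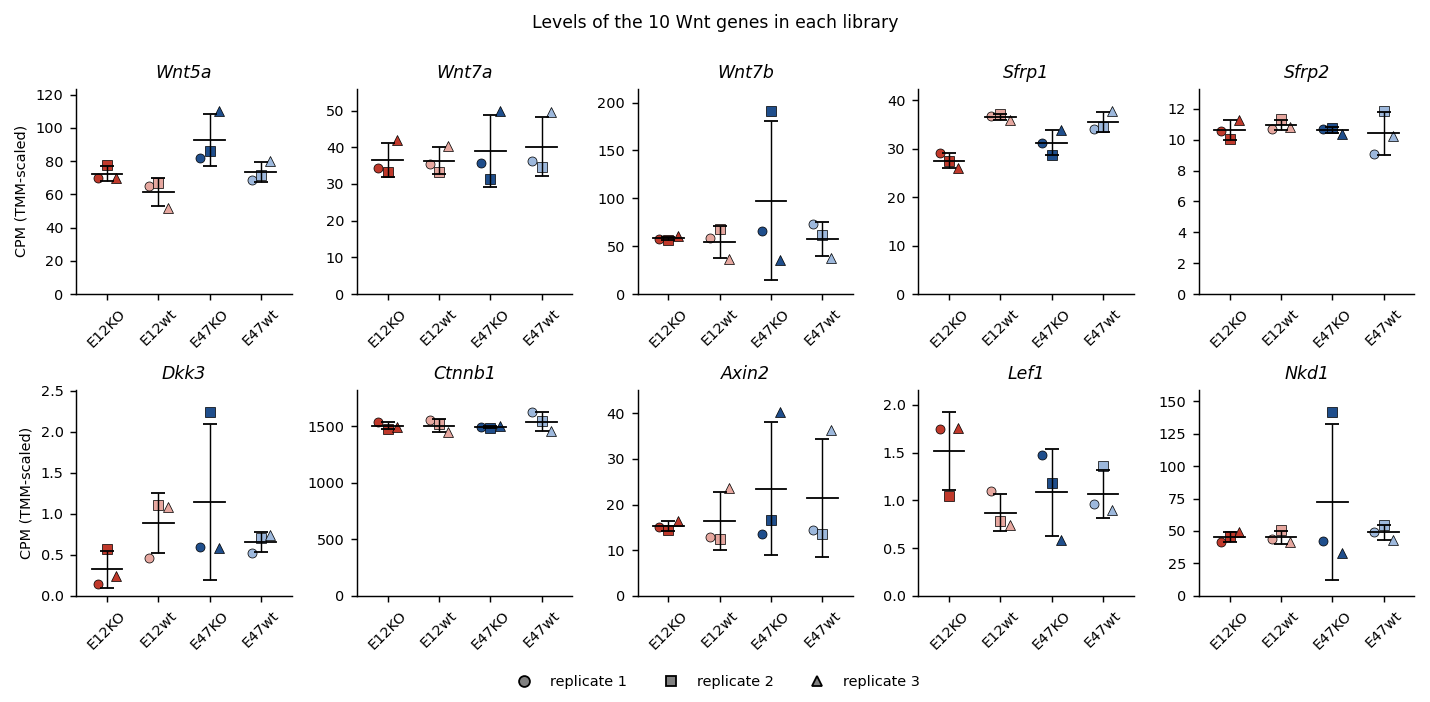
Level of each of the 10 Wnt genes in CPM (vertical axis, from 0, a scale of its own for each gene) in the 12 libraries, by group; symbols are single libraries, long bars the mean and error bars the SD of 3 libraries. Sfrp1 and Wnt5a have knockout libraries that do not overlap their wild types, while single libraries stand out for Wnt7b and Nkd1 (E47KO replicate 2) and for Axin2 (replicate 3 of E47KO, E47wt and E12wt).

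Among the ligands, Wnt5a acts mostly through branches that do not need β-catenin, such as planar cell polarity. Wnt5a (ENSMUSG00000021994, chromosome 14) had 69.8, 77.7 and 69.8 CPM in E12KO, against 65.0, 67.1 and 51.7 CPM in E12wt. In the other line it had 81.8, 86.0 and 110 CPM in E47KO, against 68.7, 71.8 and 79.9 CPM in E47wt. Every knockout library was above every wild-type library of its line. The lowest of all 12 was E12wt replicate 3 and the highest E47KO replicate 3. The log2 fold change was 0.25 ± 0.10 (SE) in the E12 line (edgeR adjusted p = 0.547) and 0.34 ± 0.14 in the E47 line (adjusted p = 0.971). Without E12wt replicate 3 the E12 value was 0.13, and without E47KO replicate 3 the E47 value was 0.21. Between the wild types, E47wt over E12wt, it was 0.26 ± 0.11 (adjusted p = 1.00), again with no overlap, and 0.15 without E12wt replicate 3.

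Wnt7a and Wnt7b are close relatives that can signal through β-catenin and are made by neural progenitors and neurons. Wnt7a (ENSMUSG00000030093, chromosome 6) had 34.3, 33.4 and 42.0 CPM in E12KO and 35.5, 33.4 and 40.3 CPM in E12wt. It had 35.7, 31.3 and 49.98 CPM in E47KO and 36.4, 34.7 and 49.5 CPM in E47wt. In each group the library numbered 3 was the highest, and knockouts and wild types overlapped throughout. Fitted log2 fold changes were 0.01 ± 0.11 in the E12 line and -0.04 ± 0.22 in the E47 line.

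Wnt7b (ENSMUSG00000022382, chromosome 15) had 57.8, 56.2 and 60.2 CPM in E12KO and 58.6, 68.5 and 36.3 CPM in E12wt. It had 65.5, 192 and 35.9 CPM in E47KO and 73.2, 61.8 and 37.8 CPM in E47wt. One library, E47KO replicate 2, was 2.62 times the next highest of the 12, and the other E47KO libraries lay within or below the range of E47wt. The log2 fold change was 0.76 ± 0.58 in the E47 line (adjusted p = 0.971), 0.45 with the replicate block and -0.19 without that library. In the E12 line it was 0.10 ± 0.19.

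Among the antagonists, Sfrp1 is a secreted protein with a Frizzled-like domain that binds Wnts. Sfrp1 (ENSMUSG00000031548, chromosome 8) had 29.1, 27.5 and 25.9 CPM in E12KO, against 36.8, 37.2 and 35.9 CPM in E12wt. The knockout mean was 27.5 ± 1.56 CPM and the wild-type mean 36.6 ± 0.640 CPM (SD, n = 3 each), with no overlap. It had 31.1, 28.8 and 33.9 CPM in E47KO, against 34.1, 34.5 and 37.9 CPM in E47wt, also without overlap, though the closest libraries were 33.9 and 34.1 CPM. The log2 fold change was -0.41 ± 0.08 in the E12 line, a fold of 0.754 with an edgeR unadjusted p of 0.000531 and an adjusted p of 0.326. DESeq2 gave -0.41 with an adjusted p of 0.00134. In the authors' deposited table the log2 fold change was -0.41 ± 0.086 with an adjusted p of 0.00169, and 1 of the 9 members listed there passed 0.05, against 0.513% of that table's 12088 genes. In the authors' deposited table of the E47 line 0 of the 9 members listed passed, against 0.0796% of 12556 genes. Under all 12 alternatives run the E12 value lay between -0.45 and -0.36. The E47 value was -0.18 ± 0.12 (edgeR adjusted p = 0.971), and the wild types differed by -0.05 ± 0.07 (E47wt over E12wt).

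Some markers of mesenchyme and meninges, cells in which Sfrp genes are also known to be made, fell in the same comparison, while others of the list lay higher. Of 10 such markers, 4 averaged at least 1 CPM. Their summed level over all 10 was 12.3 to 16.1 CPM in E12KO and 15.1 to 20.2 CPM in E12wt. In the other line it was 12.3 to 18.3 CPM in E47KO and 10.6 to 24.7 CPM in E47wt. Of 7 markers tested in the E12 line, 3 fell in E12KO, namely the collagen genes Col1a1 (log2 fold change -1.83, adjusted p = 0.0105) and Col1a2 (-5.28, adjusted p = 0.00433) and the matrix gene Bgn (-3.45, adjusted p = 0.00433), by edgeR. In all, 4 of the 7 lay below 0 and 3 above. Foxc1 had 8.10, 8.60 and 8.15 CPM in E12KO against 7.35, 6.56 and 4.395 CPM in E12wt. Thy1 had 2.39, 2.63 and 4.42 CPM in E12KO against 1.82, 1.79 and 2.36 CPM in E12wt. For both genes every E12KO library lay above every E12wt library, with an adjusted p of 0.537 for Foxc1 and 0.534 for Thy1 by edgeR. Dcn and Lum, also of this list, were at or below 0.302 CPM in every library. E47wt replicate 1 had the highest Col1a1 of all libraries, 6.92 CPM against 0.724 and 1.03 CPM in the other E47wt libraries. Sfrp1 was at 34.1 CPM in that library, against 34.5 and 37.9 CPM in the other E47wt libraries. The part of these cells in the E12 values of Sfrp1 was not tested.

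Sfrp2 (ENSMUSG00000027996, chromosome 3), is the close relative of Sfrp1, and its groups did not separate. It had 10.5, 10.03 and 11.3 CPM in E12KO and 10.7, 11.3 and 10.8 CPM in E12wt. In the other line it had 10.7, 10.7 and 10.4 CPM in E47KO and 9.06, 11.9 and 10.3 CPM in E47wt. Groups overlapped in both lines, with log2 fold changes of -0.04 ± 0.10 and 0.03 ± 0.16 in the E12 and E47 lines.

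Dkk3, a divergent Dickkopf protein whose place in Wnt signalling is less settled than that of its relatives, was close to the detection limit. Dkk3 (ENSMUSG00000030772, chromosome 7) had 0.149, 0.575 and 0.238 CPM in E12KO, which is 39 reads in all. It had 0.459, 1.10 and 1.09 CPM in E12wt, or 113 reads. Only E12KO replicate 2 and E12wt replicate 1 overlapped. It had 0.597, 2.24 and 0.587 CPM in E47KO and 0.520, 0.710 and 0.745 CPM in E47wt, with E47KO replicate 2 the highest of the 12 libraries. The log2 fold change was -1.44 ± 0.52 in the E12 line (edgeR unadjusted p = 0.0218, adjusted p = 0.523). For E47 the value was 0.76 ± 0.57 (adjusted p = 0.971) and -0.16 without E47KO replicate 2.

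Ctnnb1 encodes β-catenin, whose activity is set mainly by protein stability and not by its RNA, and which also serves cell adhesion. It was the steadiest member, with a coefficient of variation of 3.20% over the 12 libraries. Ctnnb1 (ENSMUSG00000006932, chromosome 9) had 1538, 1478 and 1493 CPM in E12KO and 1555, 1515 and 1444 CPM in E12wt. It had 1490, 1482 and 1501 CPM in E47KO and 1621, 1543 and 1458 CPM in E47wt. The groups overlapped, and the log2 fold changes were 0.00 ± 0.06 and -0.05 ± 0.09 in the E12 and E47 lines.

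Axin2, Lef1 and Nkd1 are read as reporters of β-catenin signalling, so the DNA before their start sites is shown. Of the 10 members, 6 had an entry among RefSeq promoters of build GRCm38.p6 (Wnt7a, Sfrp2, Ctnnb1, Axin2, Lef1 and Nkd1), with 10 windows of 300 bases, each 250 before to 50 after a start site. Windows were searched on both strands for the TCF/LEF core CTTTGA and for the E-boxes CAGCTG and CAGGTG, which are special cases of the general E-box CANNTG. Capitals mark matches to the TCF/LEF core or to either of the 2 named E-boxes, on either strand. The Axin2 window lies at chr11:108920099-108920398, the Nkd1 window at chr8:88527383-88527682 and the Lef1 window shown, the fourth of 4, at chr3:131156044-131156343, all on the plus strand. Of the 4 Lef1 windows it alone held CTTTGA, and it lies downstream of the other 3, the first of which starts at chr3:131110047.
Axin2: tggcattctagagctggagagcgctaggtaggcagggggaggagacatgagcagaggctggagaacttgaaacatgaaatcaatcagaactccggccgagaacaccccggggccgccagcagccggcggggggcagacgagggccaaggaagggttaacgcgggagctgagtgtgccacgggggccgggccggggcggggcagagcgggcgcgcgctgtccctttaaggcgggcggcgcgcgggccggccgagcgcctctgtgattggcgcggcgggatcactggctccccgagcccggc
Nkd1: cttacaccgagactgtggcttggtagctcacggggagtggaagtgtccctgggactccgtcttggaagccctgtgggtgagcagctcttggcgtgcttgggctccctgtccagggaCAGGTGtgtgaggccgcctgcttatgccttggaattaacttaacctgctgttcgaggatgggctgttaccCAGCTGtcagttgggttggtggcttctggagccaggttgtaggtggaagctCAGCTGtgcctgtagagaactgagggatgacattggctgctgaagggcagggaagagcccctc
Lef1: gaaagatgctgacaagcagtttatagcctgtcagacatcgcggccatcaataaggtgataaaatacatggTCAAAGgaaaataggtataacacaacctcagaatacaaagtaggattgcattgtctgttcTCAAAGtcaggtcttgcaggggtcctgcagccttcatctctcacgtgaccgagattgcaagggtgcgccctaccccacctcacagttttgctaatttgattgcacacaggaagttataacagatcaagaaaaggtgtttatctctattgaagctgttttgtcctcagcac
The Axin2 window held none of these letters. Counted from its first base, the Nkd1 window held CAGGTG at position 117 and CAGCTG at positions 187 and 238, and a further CANNTG at 194. The Lef1 window held CTTTGA at 71 and 131, both on the minus strand and so printed as TCAAAG, and a CANNTG at 172. No other member window held CTTTGA. Of the 3 Lef1 windows not shown, the first held a CANNTG at 241, the second CAGGTG at 281 and a CANNTG at 215, and the third CAGCTG at 46 and a CANNTG at 94 and at 290. Of all 32851 windows of this length, 16% held CTTTGA, 16.3% CAGCTG, 20.2% CAGGTG and 72.3% CANNTG. A match describes the letters in these windows and says nothing of binding in these cells.

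Axin2, a scaffold of the complex that destroys β-catenin and a widely used canonical target, had its highest values in libraries of both genotypes. Axin2 (ENSMUSG00000000142, chromosome 11) had 14.997, 14.4 and 16.4 CPM in E12KO and 12.8, 12.5 and 23.6 CPM in E12wt. It had 13.5, 16.6 and 40.2 CPM in E47KO and 14.4, 13.6 and 36.4 CPM in E47wt. The libraries numbered 3 of E47KO, E47wt and E12wt were the highest 3 of the 12, and knockouts overlapped wild types in both lines. Its log2 fold change was -0.09 ± 0.23 in the E12 line and 0.27 without E12wt replicate 3. In the E47 line it was 0.13 ± 0.52, and -0.49 without E47KO replicate 3, 0.75 without E47wt replicate 3 and 0.78 with sex as a covariate.

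Nkd1 binds Dishevelled and dampens the pathway that induces it. Nkd1 (ENSMUSG00000031661, chromosome 8) had 41.2, 46.1 and 49.0 CPM in E12KO and 43.6, 50.6 and 41.2 CPM in E12wt. It had 42.4, 142 and 32.9 CPM in E47KO and 49.4, 54.4 and 43.1 CPM in E47wt. As with Wnt7b, E47KO replicate 2 stood alone, at 2.60 times the next highest library, while the other E47KO libraries were below every E47wt library. Its log2 fold change was 0.02 ± 0.10 in the E12 line. Its E47 value was 0.56 ± 0.51, with 0.25 when replicate numbers were kept as a block and -0.38 without that library.

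Lef1, a DNA-binding partner of β-catenin that is also its target, was present at few reads. Lef1 (ENSMUSG00000027985, chromosome 3) had 1.74, 1.05 and 1.76 CPM in E12KO, or 186 reads, and 1.09, 0.783 and 0.740 CPM in E12wt, or 114 reads. It had 1.48, 1.19 and 0.587 CPM in E47KO and 0.958, 1.36 and 0.894 CPM in E47wt. In the E12 line the groups overlapped only by E12KO replicate 2 and E12wt replicate 1, and in the E47 line the knockouts spanned the wild types. A log2 fold change of 0.80 ± 0.28 was found in the E12 line (edgeR unadjusted p = 0.0193, adjusted p = 0.523), and of 0.01 ± 0.39 in the E47 line.

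**Figure D2:**
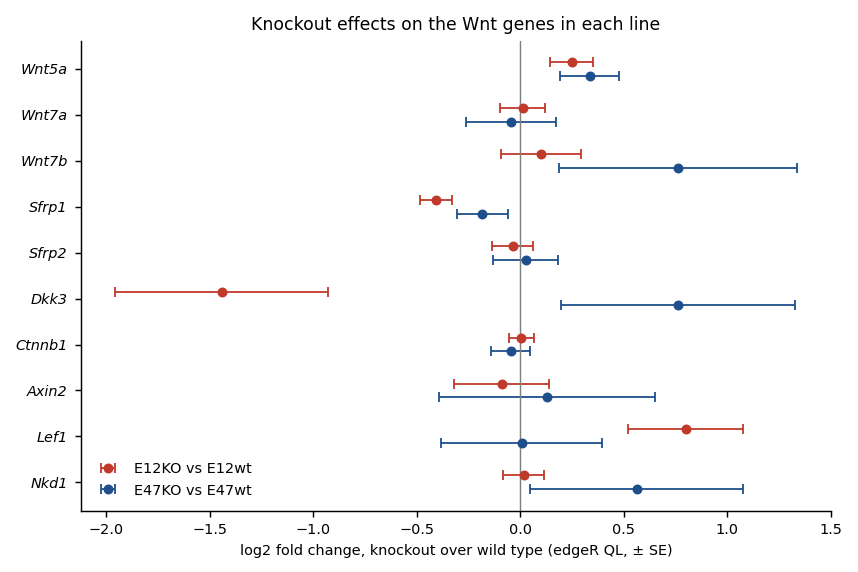
Log2 fold change of each member (horizontal axis, knockout over wild type, edgeR) in the E12 line and in the E47 line; points are estimates and bars their SE. Sfrp1 lies below 0 in both lines, at -0.41 and -0.18, Wnt5a above 0 in both, at 0.25 and 0.34, and Wnt7b, Dkk3, Axin2 and Nkd1 have wide bars in the E47 line.

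The knockout effects of the lines were compared as an interaction over all 12 libraries, E47 effect minus E12 effect. By edgeR 0 of 10 members and 0% of 15277 genes were called, and by DESeq2 0 members and 0.00655% of genes. The unadjusted edgeR p was under 0.05 for 1 member, Dkk3, against 3.03% of genes. With sex as a covariate it was under 0.05 for 0 members and for 331 of 15277 genes. The Dkk3 difference was 2.21 ± 0.85 on the log2 scale (unadjusted p = 0.0240, adjusted p = 0.932) and 1.29 without E47KO replicate 2. For Sfrp1 the difference was 0.23 ± 0.13 (adjusted p = 0.932), for Lef1 -0.79 ± 0.50 (adjusted p = 0.932) and for Wnt5a 0.09 ± 0.19 (adjusted p = 0.943). Between the wild types, E47wt against E12wt, edgeR called 0 of 10 members and 0% of 14892 genes, and DESeq2 0 members and 0.047% of genes. The unadjusted edgeR p was under 0.05 for 1 member, Wnt5a, against 3.81% of genes. With sex as a covariate it was under 0.05 for 0 members and for 543 of 14892 genes. Wnt5a was also the 1 member whose wild-type libraries did not overlap, against 9.52% of genes.

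For Wnt7b, Nkd1, Axin2 and Wnt7a, single libraries and not whole groups stood apart. E47KO replicate 2 was the highest of 12 libraries for 3 members (Wnt7b, Nkd1 and Dkk3), and E47KO replicate 3 was the highest for 3 (Wnt5a, Wnt7a and Axin2) and the lowest for 3. E47KO replicate 2 also had the highest Aqp4, the astrocyte water channel, with 23.9 CPM against 1.66 to 4.87 CPM in the other 11 libraries. Hes5, a Notch target of neural stem cells, was at 962 CPM there and at 291 to 496 CPM elsewhere. The 5 astrocyte markers that averaged at least 1 CPM were Aqp4, Aldh1l1, S100b, Gja1 and Sparcl1. With Gfap, which stayed at or below 0.947 CPM, the list summed to 576 to 1032 CPM in E47KO and 508 to 836 CPM in E47wt.

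The 3 libraries with high Axin2 were also those with low Wnt7b (36.3 CPM in E12wt, 35.9 CPM in E47KO and 37.8 CPM in E47wt). In the same libraries Olig2, a factor of the oligodendrocyte lineage, was at 459, 429 and 436 CPM, against 260 to 321 CPM in the other 9. The 7 markers of that lineage together summed to 1022 to 1248 CPM in E47KO and 934 to 1410 CPM in E47wt, and, for E12, to 874 to 1105 CPM in E12KO and 969 to 1427 CPM in E12wt. The part of astrocyte-like or oligodendrocyte-lineage cells in these levels was not tested. The labels do not say that a replicate number marks a shared day or batch.

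**Figure D3:**
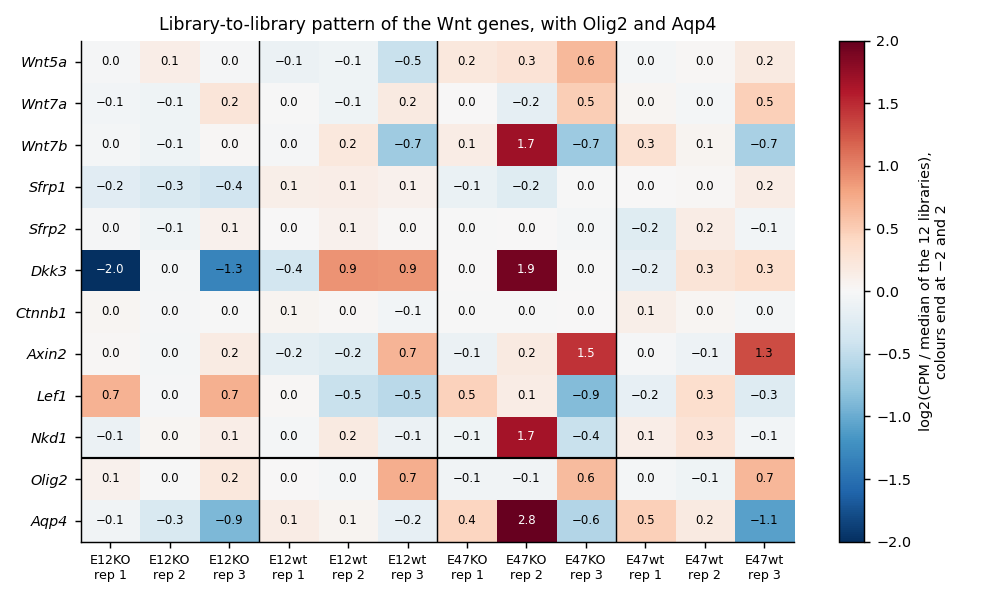
Heat map of log2(CPM over the median of the 12 libraries) for the 10 members and, below the line, Olig2 and Aqp4 (rows), in each library (columns, by group). E47KO replicate 2 is high for Wnt7b, Nkd1, Dkk3 and Aqp4, and the replicate 3 libraries of E12wt, E47KO and E47wt are high for Axin2 and Olig2 and low for Wnt7b.

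As a description over the 12 libraries, with groups pooled and libraries of 1 group sharing their genotype, log2 levels of Axin2 and Wnt7a correlated at Pearson r = 0.885, those of Wnt7b and Nkd1 at 0.914, and those of Wnt7b and Wnt7a at -0.722. Among 12588 genes of at least 1 CPM, those most like Wnt7b were Fam189a2 (r = 0.988), Cnppd1 (0.983) and Gpr146 (0.983). Those most like Axin2 were Eml1 (0.963), Gpx3 (0.962) and Zfp646 (0.956). Those most like Sfrp1 were Lekr1 (0.898), Car8 (0.891) and Spo11 (0.886). All these values include E47KO replicate 2, which stood alone for Wnt7b, and the 3 libraries with high Axin2.

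The rest of the pathway was described with 105 other genes in 6 classes, all of them found. By edgeR 0 of 78 tested in the E12 line and 0 of 79 tested in the E47 line were called, and by DESeq2 0 in each. An unadjusted p under 0.05 was found for 7 in the E12 line and for 0 in the E47 line, against the 8.96% and 2.19% of all genes given above. Where single genes below are said not to overlap, the share over all genes was 13.6% in the E12 line and 7.89% in the E47 line. The median log2 fold change was 0.02 in the E12 line, with 43 above 0 and 35 below, and 0.05 in the E47 line, with 45 above and 34 below.

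Most other ligand genes were low or not detected at this depth. Of 22 genes for ligands, R-spondins and their export, 17 averaged under 1 CPM, among them Wnt1 with 0 reads in every library and Wnt2b at or below 0.269 CPM. The export machinery was present. Wls, the carrier that brings Wnts to the cell surface, averaged 381 ± 38.6 CPM in E12KO and 323 ± 45.2 CPM in E12wt. Its E47-line averages were 315 ± 27.4 CPM in E47KO and 337 ± 56.2 CPM in E47wt (SD, n = 3 each). Porcn, the enzyme that adds the lipid, averaged 11.9 ± 1.16 CPM in E12KO and 13.4 ± 1.24 CPM in E12wt, then 15.1 ± 5.44 CPM in E47KO and 11.9 ± 1.08 CPM in E47wt. Of the few further ligands, Wnt4 had a log2 fold change of 0.47 ± 0.29 and Wnt5b of -0.28 ± 0.23 in the E12 line, and Wnt3 of 0.38 ± 0.35 in the E47 line.

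Receptors were measured broadly, with 21 of 23 genes at a mean of at least 1 CPM. In the E12 line 17 of 22 tested had a log2 fold change above 0 (median 0.09), and in the E47 line 10 of 22 (median -0.02). The co-receptor gene Lrp6 averaged 136 ± 9.09 CPM in E12KO and 129 ± 7.02 CPM in E12wt, and the Wnt5a receptor gene Ryk 135 ± 3.46 CPM in E12KO and 136 ± 3.24 CPM in E12wt. Fzd5 had 16.7, 17.7 and 16.1 CPM in E12KO against 13.9, 15.2 and 9.53 CPM in E12wt, without overlap, and a log2 fold change of 0.39 ± 0.16 (edgeR unadjusted p = 0.0405, adjusted p = 0.542). Reck, which helps Wnt7 ligands to reach their receptor, had -0.37 ± 0.22 in the E12 line. In the E47 line Fzd6 had 0.71 ± 0.44 and Fzd9 0.47 ± 0.37. Fzd9 was at 48.9 CPM in E47KO replicate 2 and at 17.6 to 23.8 CPM in the other 11 libraries.

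Of 15 other antagonists, 6 averaged at least 1 CPM. In the E47 line 8 of 9 tested lay above 0, with a median log2 fold change of 0.38, and in the E12 line 3 of 8, with a median of -0.10. The E47 median was the value of Notum, a gene at or below 0.386 CPM that was not tested in the E12 line. Draxin, a secreted guidance factor that also inhibits canonical Wnt signalling, had 58.7, 333 and 50.8 CPM in E47KO against 52.3, 72.1 and 44.0 CPM in E47wt. Apcdd1, a membrane inhibitor of Wnt signalling, had 46.8, 147 and 16.6 CPM in E47KO against 32.1, 41.6 and 11.7 CPM in E47wt. For both, E47KO replicate 2 was again the highest library of the 12, and the log2 fold changes were 1.395 ± 0.71 and 1.30 ± 0.77 (edgeR adjusted p = 0.971 for each). In the E12 line Apcdd1 had -0.35 ± 0.19 and Frzb, a secreted Frizzled-like protein, -0.45 ± 0.24. Kremen1, a receptor of Dickkopf proteins, had 0.25 ± 0.13, and Tmem131l, a membrane protein that lowers Wnt receptor levels, had -0.06 ± 0.06.

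All 20 genes of signal transduction and all 13 nuclear factors averaged at least 1 CPM. Class medians of the log2 fold change were 0.00 and 0.02 for signal transduction and -0.01 and 0.13 for nuclear factors, in the E12 and E47 lines. Apc, the tumour suppressor of the destruction complex, averaged 593 ± 59.5 CPM in E12KO and 510 ± 68.7 CPM in E12wt, and its kinase partner Csnk1a1 478 ± 24.0 CPM in E12KO and 502 ± 27.4 CPM in E12wt. Celsr1, a cadherin of planar cell polarity, was at 144 CPM in E47KO replicate 2, and its log2 fold change was 0.75 ± 0.47 in the E47 line and 0.28 ± 0.17 in the E12 line. Apc2 had 0.44 ± 0.47 in the E47 line, with 40.5 CPM in E47KO replicate 2 and at most 18.4 CPM in every other library. Among nuclear factors, Tcf7 had 6.28, 7.0 and 7.53 CPM in E12KO against 6.06, 5.85 and 5.27 CPM in E12wt, without overlap, and 0.28 ± 0.13 (adjusted p = 0.557). Tcf7l1, the factor once also called TCF3, had 0.63 ± 0.35 and the β-catenin cofactor Bcl9l 0.43 ± 0.24 in the E47 line. For both, E47KO replicate 2 was the highest library, at 60.8 CPM for Tcf7l1 and 63.6 CPM for Bcl9l. Every other library had at most 29.0 CPM of Tcf7l1 and 39.5 CPM of Bcl9l. Bcl9, the relative of Bcl9l, had -0.15 ± 0.10 in the E12 line. The co-repressor genes Tle4 and Ctbp1 were both at 0.02 in the E12 line, and at 0.13 and 0.08 in the E47 line.

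Of 12 other target genes, 8 were tested, and 6 of the 8 lay below 0 in each line, with medians of -0.17 and -0.27 in the E12 and E47 lines. Among the values below 0, Ccnd1 (-0.33) and Ccnd2 (-0.41) in the E47 line had E47KO replicate 2 far below the other libraries. Myc (-0.73) in the E12 line had E12wt replicate 3 far above the other E12-line libraries. Nkd2, the relative of Nkd1, had 2.86, 2.15 and 2.42 CPM in E12KO against 3.94, 3.26 and 4.35 CPM in E12wt. The other line gave 2.60, 1.08 and 2.29 CPM in E47KO against 2.90, 2.69 and 4.28 CPM in E47wt. Neither line had an overlap for Nkd2, as for 13.6% of all genes in the E12 line and 7.89% in the E47 line. Its log2 fold changes were -0.63 ± 0.18 (edgeR unadjusted p = 0.00752, adjusted p = 0.507) and -0.72 ± 0.37 (adjusted p = 0.971). Neurog2, a proneural gene, had 0.872, 0.925 and 0.665 CPM in E12KO against 1.53, 1.35 and 3.03 CPM in E12wt, without overlap, and -1.25 ± 0.34 (unadjusted p = 0.00576, adjusted p = 0.507). Ccnd1, a D-type cyclin, averaged 794 ± 82.7 CPM in E12KO and 664 ± 51.7 CPM in E12wt, with 0.26 ± 0.09 (adjusted p = 0.523). In E47KO replicate 2 Ccnd1 was at 172 CPM and its relative Ccnd2 at 167 CPM, against 619 to 921 CPM and 617 to 876 CPM in the other 11 libraries. Myc had 57.8 CPM in E12wt replicate 3, 49.4 CPM in E47KO replicate 3 and 44.6 CPM in E47wt replicate 3, the libraries with high Axin2, and 12.1 to 19.4 CPM in the other 9.

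**Figure D4:**
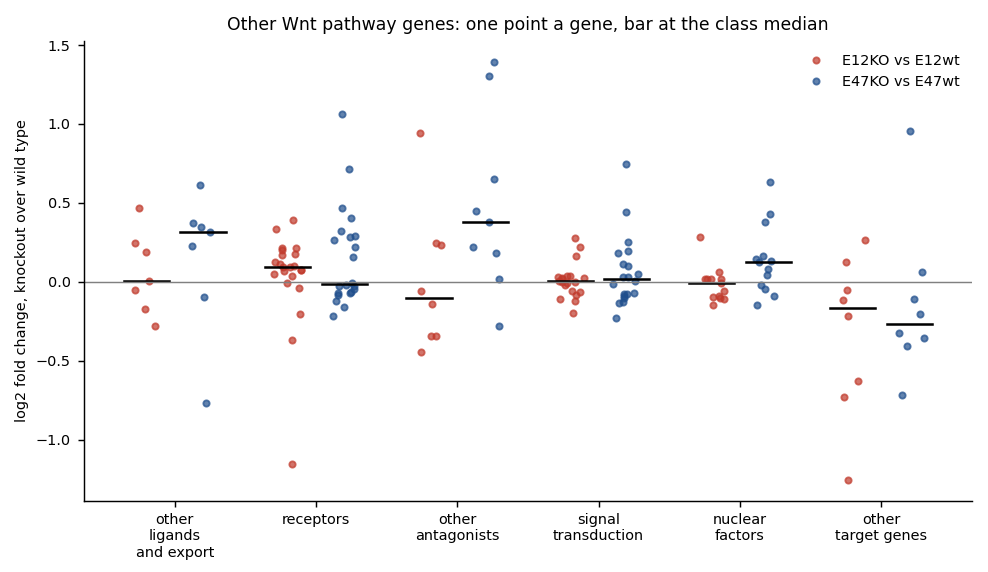
Log2 fold change (vertical axis, knockout over wild type) of the other Wnt pathway genes tested, 78 in the E12 line and 79 in the E47 line, by class; each point is a gene and each bar a class median. The bars of the other antagonists lie apart, at -0.10 in the E12 line (8 genes) and 0.38 in the E47 line (9 genes). Those of the other ligands and their export lie at 0.01 and 0.31, and those of signal transduction near 0 in both. Of the 7 ligand and export genes tested, the E12 bar is the value of Wnt9a, a gene at or below 0.477 CPM. The E47 bar is that of Wnt4 (0.31 ± 0.43, SE).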

How the data were processed

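Per the labels' protocols, the 12 libraries were stranded mRNA libraries. The submitters' processing notes name STAR 2.5, DESeq, DESeq2 and build mm9, and the gene annotation is not given in sources used here. Whole-number counts per gene were deposited by the authors, of both strands and of each strand, of which opposite-strand counts (97.1 to 97.2% of stranded gene reads) were used. Rows that name no gene stayed out: unmapped reads were 2.95 to 5.40% of the total, multimapping 4.49 to 5.16%, without feature 5.41 to 7.37% and ambiguous 0.822 to 0.877%. For each line, the authors also deposited a table with normalized signal, log2 fold changes, a score (fold change divided by standard error), and p-values, raw and adjusted. The lowest mean signal listed there was 50.2 (E12) or 37.5 (E47), and Dkk3 is listed for neither line.

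Counts were tested in R 4.3.3 with edgeR 4.0.16 (filterByExpr, TMM, glmQLFit, glmQLFTest, two-sided, Benjamini-Hochberg over all genes tested, with calls at an adjusted p under 0.05), each line with its own 6 libraries and the interaction with all 12. Fitted fold changes carry a prior count of 0.125 and correlations use log2 CPM with a prior count of 2. Scripts were tested on simulated data. Alternatives were another normalization, no low-count filter, DESeq2 1.42.0, both-strand counts, a replicate block, all libraries in the fit, sex as a covariate and each library left out. Replicate counts differed beyond sampling noise in every group (chi-square per degree of freedom 11.99 to 214). Deviations of same-numbered libraries of the E47 line correlated at 0.100, 0.229 and 0.455 over 15277 genes. Those of E47KO replicate 2 and E47wt replicate 1 correlated at 0.148. Same-numbered libraries of E47wt and E12wt, which are not litter mates, correlated at 0.050, 0.257 and 0.281. The main fits did not pair libraries, and the replicate block was run as an alternative. Names for 32897 IDs, chromosomes and exon lengths came from GENCODE on GRCm38; the deposited tables named 10 more IDs and 4713 kept theirs. Sense-strand reads of a member were at most 25 in a library.

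The members and lists were chosen with earlier results of these data known. Named besides all members were, per class and knockout comparison, every called gene, the 2 of highest mean CPM and the 2 of largest absolute log2 fold change among those averaging at least 1 CPM, and the 3 genes most like Wnt7b, Sfrp1 and Axin2. Wnt1, Wnt2b, Wnt9a and the library values of named genes, and Tcf3, Olig2, Aqp4, Hes5, Gfap and the mesenchymal markers, were added after values were seen. Other marker lists gave no call in either line: neurons (7 of 8 at 1 CPM or more), endothelium (2 of 6) and microglia (1 of 6).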

Additional observations from a re-analysis of the deposited data

How the results depend on the processing

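Each alternative was run where it can be fitted; sex as a covariate could not be fitted in the E12 line, whose libraries are of 1 sex. Genes called in E12KO against E12wt numbered 6, against 20 with no low-count filter, 76 with DESeq2, 2 with all 12 libraries in the fit and 2 to 10 with a library left out (2 without E12KO replicate 2 or 3, 10 without E12wt replicate 3). Members called there were 1 with DESeq2 and 0 otherwise. In E47KO against E47wt 2 genes were called, against 12 with DESeq2, 1 with sex as a covariate and 0 to 7 with a library left out (7 without E47wt replicate 2, 0 without E47wt replicate 3, 1 without replicate 1 of either group). The interaction called 0, against 1 with DESeq2 and 0 to 1 with a library left out (1 without E47wt replicate 2), and E47wt against E12wt 0, against 7 with DESeq2. The replicate block gave 4, 2, 0 and 0 calls in these 4 comparisons and changed no call of a member. In the E12 line the correlations of same-numbered libraries were 0.0894, 0.0582 and -0.00797. The main fit paired libraries in neither line. Of 346 alternative values of single members, 312 kept direction and side of the threshold, 33 changed sign and 1, Sfrp1 in the E12 line with DESeq2 (-0.41), passed the threshold. The changes of sign without a library left out were Ctnnb1 in the E12 line (-0.0018 with no filter, -0.0013 with all 12 libraries) and, in the E47 line, Wnt7a (0.17) and Sfrp2 (-0.17) with sex as a covariate and Lef1 (-0.034 with both strands, -0.050 with the replicate block, -0.33 with sex). With a library left out, log2 fold changes in the E12 line ran from -0.25 to 0.27 for Axin2, -0.031 to 0.018 for Ctnnb1, -0.052 to 0.11 for Nkd1, -0.095 to 0.086 for Wnt7a and -0.13 to 0.30 for Wnt7b. In the E47 line they ran from -0.49 to 0.75 for Axin2, -0.16 to 1.10 for Dkk3, -0.29 to 0.33 for Lef1, -0.38 to 0.92 for Nkd1, -0.065 to 0.13 for Sfrp2, -0.25 to 0.14 for Wnt7a and -0.19 to 1.17 for Wnt7b, and for the interaction from -0.041 to 0.21 for Wnt5a. The cause was not tested, beyond the libraries named. Sfrp1 and Wnt5a kept their direction in both lines under every alternative run. Dkk3 and Lef1 rest on 6 to 81 reads in a library, so counting error weighs on them.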
